A study of Ictidomys tridecemlineatus with 5 samples.

Results

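The eye-field transcription factors are the genes whose combined expression marks the patch of the embryonic forebrain that becomes the eyes. The 9 genes described here are PAX6, PAX2, RX (the Swiss-Prot name of the protein encoded by Rax), SIX3, SIX6, LHX2, SOX2, MEIS1 and MEIS2. They were found by name: a transcript was counted for a gene when the entry name of its best Swiss-Prot hit, without the species code, was that gene. All 9 names were found in the eye table and 8 of them also in the retina table, where PAX2 was missing, of 13949 protein names that both tables hold. They were carried by 28 transcripts in eye and 36 in retina. The symbols of all 9 genes were found in the RefSeq annotation of the squirrel assembly mIctTri1.hap1.

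RNA came from eye tissue and from retina of wild-type ground squirrels, Ictidomys tridecemlineatus, a hibernating rodent active by day. The labels give 2 eye libraries and 3 retina libraries, each prepared from pooled RNA of 4 animals, and no age, sex, season or treatment, so that the stage of the animals is unknown here. The deposited expression values are read here as RPKM (reads per kilobase of transcript, scaled to the total of reads). They give 1 level per assembled transcript and tissue, with no value per library. No difference between the tissues therefore has a replicate check, no test was run, and intervals below cover counting error only.

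These factors form a network in the embryo. PAX6 binds DNA through a paired domain and a homeodomain and is needed for eye formation in mouse, human and fly; SIX3 and SIX6 are homeodomain proteins of the sine oculis family; RX and LHX2 act early in the optic vesicle in mouse; SOX2 is an HMG-box factor of neural progenitors; and MEIS1 and MEIS2 are TALE homeodomain proteins that bind DNA with PBX partners and, in mouse, act upstream of Pax6 in the lens. In the mature mouse retina several remain on in restricted cells: Pax6 in amacrine, horizontal and ganglion cells, Lhx2 and Sox2 in Mueller glia, Sox2 also in some amacrine cells. Pax2 marks the astrocytes of the optic nerve head.

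At the level of the highest transcript, 8 of the 9 factors were present in both tissues at levels between 7.47 and 136 RPKM in eye and between 7.72 and 162 RPKM in retina. PAX6 was the most abundant in both, and PAX2 was the lowest in eye. Differences were taken as log2(eye RPKM + 1) minus log2(retina RPKM + 1), which understates the difference of low genes. MEIS2, SIX6, SIX3 and PAX6 stood lower in eye than in retina, LHX2 and RX stood higher, and SOX2 and MEIS1 differed by no more than their counting error. In bulk RNA fewer cells of a type and less RNA per cell cannot be told apart. Of the 8, 6 lay below 0 and 2 above it, and of all 13383 proteins compared 50.3% lay below and 49.7% above. By a mark of 2-fold, 1 factor (MEIS2) was higher in retina, where 3.6% of all proteins were, and 0 were higher in eye, where 11.8% of all proteins were. The median over the 8 factors was -0.14, beside a median of -0.0035 over all proteins. With RPKM summed over transcripts and both tissues set to an equal total, the median over the 8 factors was -1.27 and that over all proteins -0.63.

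**Figure D1:**
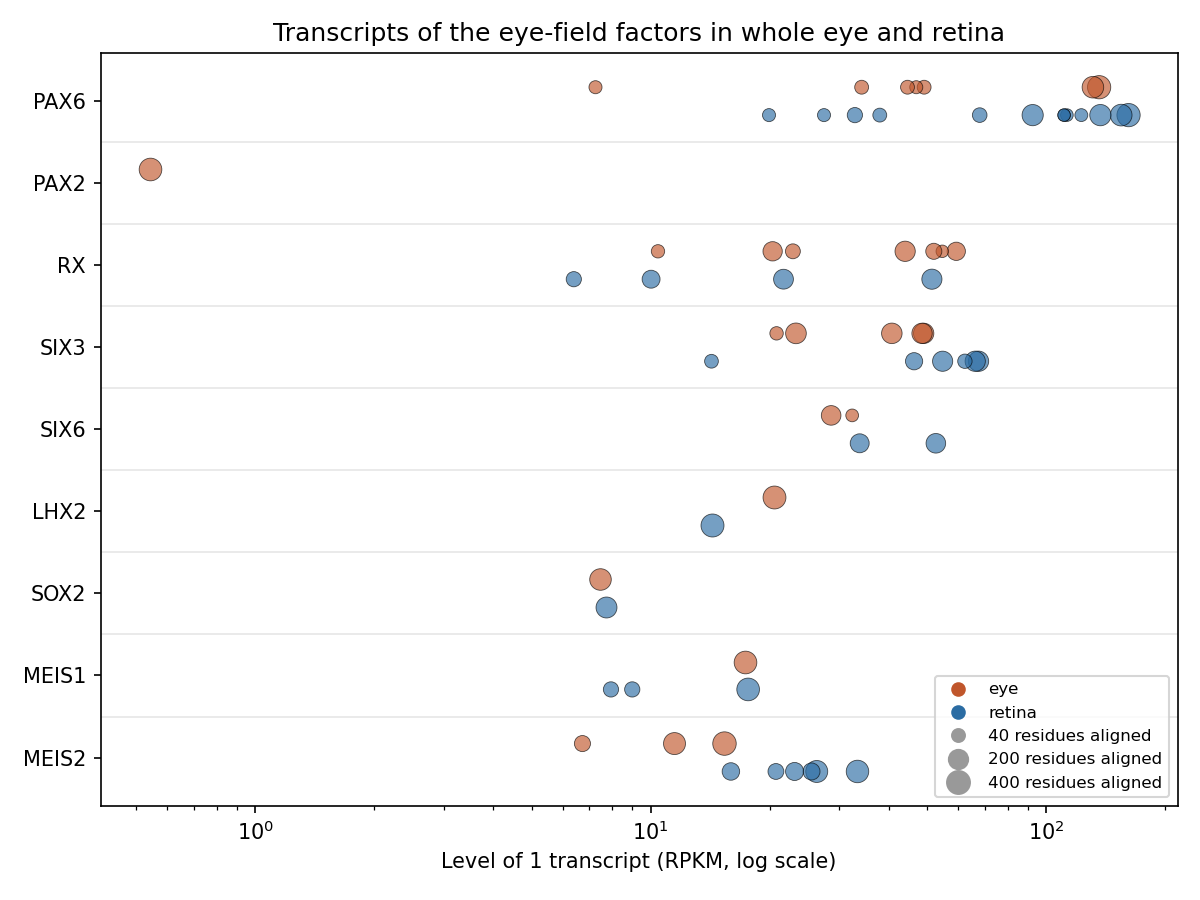
Level of each transcript of the eye-field factors in RPKM on a log scale, with eye transcripts above retina transcripts for each gene. The area of a point follows the square root of the length of its alignment to the Swiss-Prot protein. All 3 MEIS2 transcripts of eye lie below all 6 of retina, and the PAX6 and RX transcripts of the tissues overlap. Transcripts of 1 gene are no replicates. PAX2 has a single point, at 0.541 RPKM in eye.

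PAX6 was the leading member. It had 7 transcripts in eye, from 7.26 RPKM through a median of 47.0 to 136, and 13 in retina, from 19.9 through a median of 111 to 162. The ranges overlapped widely, and the transcripts of 1 gene share reads and are no replicates. In both tissues the highest transcript was 1644 bases long and aligned over 432 residues to bovine Pax-6 with the same score. It stood at 136 RPKM in eye, with a 95% counting interval of 135 to 137, and at 162 RPKM in retina, with one of 161 to 163. The difference was -0.25 (-0.26 to -0.23), a level in eye 0.842 times that in retina. PAX6 ranked at percentile 96.2 of the proteins compared for eye and at percentile 97.0 for retina, which places it among the abundant messages of both tissues.

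The remaining PAX6 transcripts fell into 3 kinds. Transcripts that aligned over 299 residues or more stood high: 131 RPKM for the other such one of eye, on 796 bases, and 155, 137 and 92.6 RPKM for those of retina, on 820, 1959 and 1535 bases. Transcripts that aligned over 43 to 80 residues to quail or medaka Pax-6 were lower. In eye they stood at 49.2, 47.0, 44.7, 34.2 and 7.26 RPKM, and in retina at 68.0, 38.0, 32.9, 27.5 and 19.9. Those that aligned over the same 55 residues with the same score stood at 49.2, 44.7 and 34.2 RPKM in eye and at 38.0 RPKM in retina. Those that aligned over the same 43 residues stood at 47.0 and 7.26 RPKM in eye and at 27.5 and 19.9 in retina. These partial transcripts thus had no single direction, unlike the 1644-base one. Another kind was present in retina only: 4 fragments of 111 to 127 bases that aligned to chicken Pax-6, at 111, 111, 113 and 123 RPKM. They are counted in a sum over transcripts, which gave a difference of -1.40, and do not touch the main value.

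PAX2, the paired-box factor of the optic stalk, was at 0.541 RPKM in eye on 1 transcript of 1099 bases. This rested on 157 reads, and the transcript aligned to human Pax-2 over 389 residues with 90% positive matches. No retina transcript carried the name. Over all proteins, 1338 names were in the eye table only and 651 names in the retina table only, and the tables list only what was assembled, so no fold is given. In the same libraries the optic nerve and astrocyte markers were higher in eye for 4 of 4 members, GFAP at 145 RPKM in eye and 16.9 RPKM in retina and MBP, a myelin protein, at 170 and 1.23. They summed to 426 RPKM in eye and 39.1 RPKM in retina, and their part in the finding of PAX2 was not tested.

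SIX3, which in mouse restrains Wnt signalling in the forebrain, and SIX6, which sustains retinal progenitors, were both lower in eye. SIX3 transcripts stood at 49.1, 48.6, 40.8, 23.3 and 20.8 RPKM in eye, and from 14.3 through a median of 58.6 to 67.5 over 6 transcripts of retina. The 2 highest of eye lay below the 4 highest of retina, which stood at 67.5, 66.3, 62.4 and 54.8 RPKM. The highest transcripts were of similar size, 840 and 804 bases, each aligned over 252 residues to human SIX3, and differed by -0.45 (-0.49 to -0.42). The difference stayed between -1.41 and -0.42 under 16 alternatives.

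SIX6 had 2 transcripts in each tissue. They stood at 32.4 and 28.6 RPKM in eye and at 52.7 and 33.8 RPKM in retina. The difference of the highest was -0.69 (-0.72 to -0.66). The highest of eye, however, aligned over only 39 residues with 76% positives. The transcripts that aligned over the same 218 residues, all positive, with the same score stood at 28.6 RPKM in eye and 52.7 RPKM in retina, a difference of -0.86 (-0.88 to -0.83). In the RefSeq annotation Six6 lies next to C5H14orf39, the counterpart of human SIX6OS1. Transcripts with the name of that neighbour stood at 0.435 RPKM in eye and at 0.239 to 0.528 RPKM in retina. Whether the counting used strand is not given in the sources used here.

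RX, the retinal homeobox factor, changed direction with the transcript taken. Its 7 transcripts of eye stood at 10.4 RPKM at the lowest, 44.1 at the median and 59.3 at the highest. The 4 of retina stood at 51.5, 21.7, 10.03 and 6.40 RPKM, so that the tissues overlapped over most of the range. By the highest transcripts RX differed by 0.20 (0.17 to 0.23), but the transcript of eye matched human RX with only 46% positives over 165 residues and that of retina with 62% over 243. The transcripts with the highest alignment score, which also had the lowest E-values, stood at 20.4 RPKM in eye and 21.7 RPKM in retina, a difference of -0.09. Among transcripts with at least 80% positives the highest stood at 54.7 RPKM in eye, aligned over 36 residues, and at 21.7 in retina, a difference of 1.30. The relative RAX2, a photoreceptor homeobox factor in human, was at 14.7 RPKM in eye and 53.4 RPKM in retina by its highest transcript and by the one with the highest alignment score. By the lowest E-value, with ties going to the longer transcript, it was at 14.7 RPKM in eye and 10.9 RPKM in retina. A retina transcript at 4.46 RPKM had the chicken name RX2 as its best hit and was counted for neither gene.

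LHX2, a LIM homeodomain factor of the optic vesicle, had the largest difference towards eye by the highest transcript. It had 1 transcript in each tissue, of 2554 bases in eye and 2577 in retina, aligned over 406 and 414 residues to human Lhx2. The level was 20.5 RPKM in eye and 14.3 RPKM in retina, a difference of 0.49 (0.46 to 0.53), or 1.44 times higher in eye. With both tissues set to an equal total the difference was 0.23, while that of all proteins moved to a median of -0.25. With sums at an equal total the sign changed, to -0.11. With 1 transcript in each tissue, the choice of transcript could not change the LHX2 value.

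SOX2 was the least abundant of the 8 shared factors. Its single transcripts, of 2505 bases in eye and 2906 in retina, stood at 7.47 RPKM in eye and 7.72 RPKM in retina. The difference of -0.04 had a counting interval that reached 0 (-0.09 to 0.0019). Mueller glia, the main site of Sox2 in mature mouse retina, were represented by 5 markers, 4 of them higher in eye, and the list median was 0.10. Glutamine synthetase stood at 856 RPKM in eye and 801 RPKM in retina, and RLBP1, a retinoid carrier of glia and pigment epithelium, at 347 and 323. The glial glutamate transporter EAA1 was the one lower in eye, at 84.2 RPKM against 156 in retina. The filament protein vimentin was higher in eye by 1.21, at 678 RPKM on 276 bases against 292 on 2364 bases in retina. The water channel AQP4 was higher by 0.84, at 11.4 against 5.95. How far these markers stand for Mueller glia in whole eye, which holds other tissues, was not tested.

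MEIS1 and MEIS2 are closely related TALE factors; by the highest transcript MEIS1 was even between the tissues within counting error and MEIS2 was lower in eye. MEIS1 had 1 transcript in eye, at 17.3 RPKM, and 3 in retina, at 17.7, 8.99 and 7.94 RPKM. The top transcripts aligned over the same 390 residues with the same score and differed by -0.03 (-0.06 to 0.0014). MEIS1 differed by -0.96 when transcripts were summed, by -1.57 with sums at an equal total and by 0.30 with length-weighted means. MEIS2 stood at 15.4, 11.5 and 6.73 RPKM in eye and at 33.4, 26.3, 25.5, 23.1, 20.8 and 16.0 RPKM in retina. All 6 transcripts of retina lay above all 3 of eye. Transcripts of 1 gene are no replicates, and the share of all proteins that separate in this way was not counted. The highest differed by -1.07 (-1.10 to -1.04), 2.17 times higher in retina. The pair that aligned over the same 345 residues of mouse Meis2 stood at 11.5 RPKM in eye and 26.3 RPKM in retina, a difference of -1.13 (-1.17 to -1.09). MEIS2 was lower in eye under all 17 alternatives and at least 2-fold lower under 13 of them. Most of those 13, the highest alignment score included, took the same transcripts as the main value and are no separate support. The difference was under 2-fold with the lowest E-value, ties going to the longer transcript (-0.74), and with the longest transcript (-0.56). Length-weighted means (-0.84) and a pseudocount of 5 (-0.91) also left it under 2-fold. Among all proteins the MEIS2 difference by the highest transcript lay at percentile 3.18.

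**Figure D2:**
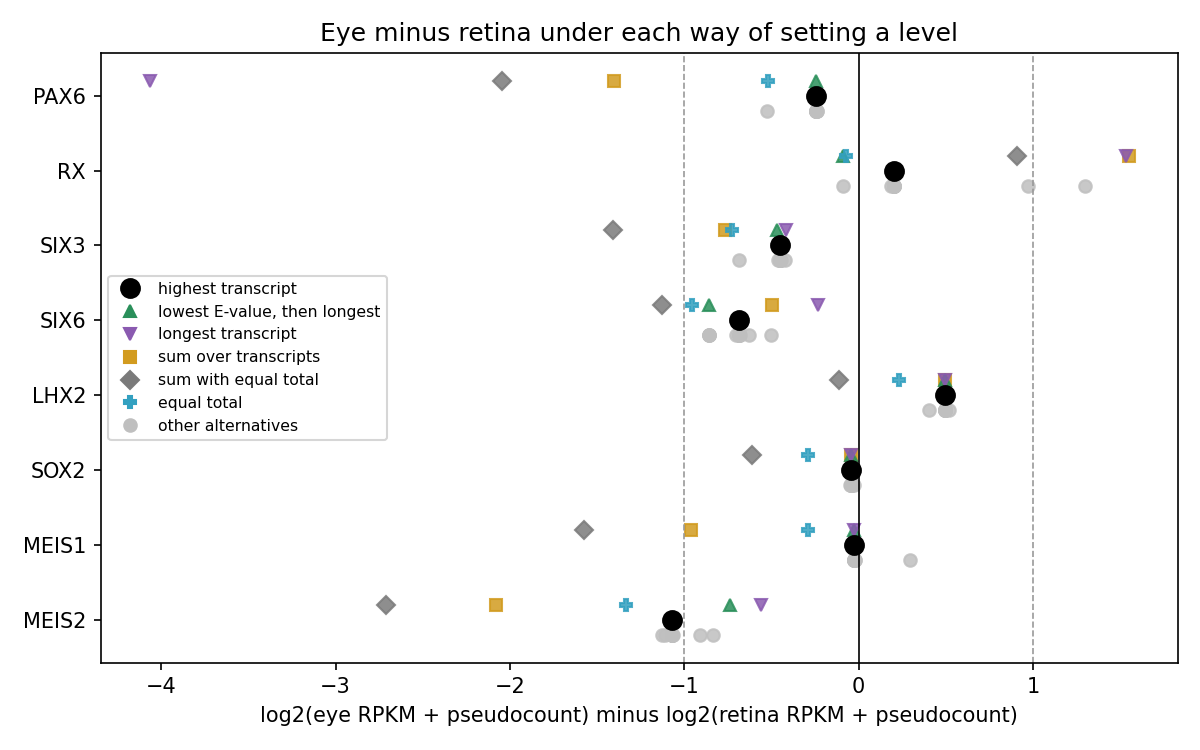
Eye minus retina difference of the 8 factors in both tables, on the log2 scale, with the level set by the highest transcript (black) and by the alternatives (coloured and grey); dashed lines mark 2-fold. MEIS2 lies below 0 throughout, RX lies on both sides of 0, and the PAX6 value at -4.07 compares the longest transcripts, of 2180 bases in eye and 1959 in retina.

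The order of levels was similar in both tissues at its ends and different in the middle. In eye the order of the highest transcripts was PAX6, RX, SIX3, SIX6, LHX2, MEIS1, MEIS2, SOX2 and PAX2. In retina it was PAX6, SIX3, SIX6, RX, MEIS2, MEIS1, LHX2 and SOX2. PAX6 stood 2.30 times above the next in eye and 2.40 times in retina. The closest neighbours were SIX6 and RX in retina, at 52.7 and 51.5 RPKM, a ratio of 1.02 with a counting interval of 1.01 to 1.04. In eye the closest were MEIS1 and MEIS2, at 17.3 and 15.4 RPKM, a ratio of 1.13 (1.10 to 1.15). Such gaps exceed counting error only, and they are smaller than the spread between transcripts of the same gene, which reached 18.8-fold for PAX6 in eye and 8.05-fold for RX in retina. The likeness of 2 genes was taken as the distance between their log2(RPKM + 1) levels over the 2 tissues, against 60 other factors and partner genes. By this measure the nearest to PAX6 was CRX (0.32), to SIX3 OTX2 (0.21), to RX SIX3 (0.47), to SIX6 the corepressor TLE2 (0.32), to LHX2 PBX2 (0.28), to SOX2 PKNX2 (0.07), to MEIS1 TLE4 (0.11) and to MEIS2 its relative MEIS3 (0.39). With only 2 tissues this describes position and no pattern of expression.

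The partner list holds 67 relatives and binding partners of the eye-field factors. Of these, 53 were in both tables, 8 in the eye table only, 0 in the retina table only and 6 in neither. Among the 53, 24 leaned to eye and 29 to retina, 2 passed 2-fold towards eye and 3 towards retina, and the median was -0.05. Over all proteins 50.3% lay towards retina, and 11.8% passed 2-fold towards eye and 3.6% towards retina. Those found in eye only included SIX4, PAX3, SOX1, SOX3, VAX1, OTX1 and FOXD1, with levels from 0.513 RPKM for SIX4 to 5.65 for OTX1. The 8 were 13.1% of the partner names in the eye table, where 8.75% of all names were in eye only.

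In the group of sine oculis, EYA and DACH proteins, 6 of 8 shared genes leaned to eye, the median was 0.21, and none passed 2-fold with 1 RPKM added to both levels. Without that addition EYA2 was 2.98 times and SIX2 2.62 times higher in eye. DACH1, a corepressor that works with sine oculis proteins, was at 8.99 RPKM in eye and 12.7 RPKM in retina, and DACH2 at 2.62 and 3.82. EYA3, a coactivator with phosphatase activity, was at 6.09 and 5.92 RPKM, and SIX5 at 4.35 and 2.58. SIX2, which neighbours Six3 in the RefSeq annotation, was at 2.20 RPKM in eye and 0.840 RPKM in retina. SIX3 thus lay lower in eye, while this neighbour lay higher in eye. The SIX2 value of retina rests on 67 reads of a transcript of 224 bases, against 1614 bases in eye. Of the other PAX genes, PAX8 was at 10.4 RPKM in eye and 8.35 RPKM in retina by the highest transcript, but at 0.491 and 8.35 by the highest alignment score, a difference of -2.65. PAX3 was in eye only at 0.530, and 5 were in neither table.

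TALE partners were near even, with 4 of 9 higher in eye and a median of -0.08. PBX3 and PBX2, DNA-binding partners of MEIS proteins, stood at 24.1 and 23.3 RPKM in eye and at 27.7 and 16.8 RPKM in retina. MEIS3 was lower in eye, at 13.4 RPKM against 26.0 in retina, a difference of -0.91. The repressor TGIF1 was past 2-fold, at 4.27 RPKM in eye and 0.495 RPKM in retina. Its relative TGIF2, at 2.21 RPKM in eye and 0.650 RPKM in retina, was 3.41 times higher in eye but under the mark with 1 RPKM added, at 0.96. The Groucho family includes corepressors that bind SIX3 and SIX6. Of its members, AES was at 130 RPKM in eye and 120.0 RPKM in retina, TLE1 at 21.6 and 28.8 and TLE4 at 18.8 and 17.6. TLE4 turned to -0.47 with the longest transcripts. TLE2 differed by -1.03, at 25.8 RPKM in eye and 53.9 RPKM in retina, but by 2.62 with the longest transcripts.

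SOX relatives stood at low levels in both tissues, with 2 of 4 higher in eye. SOX9, a glial factor, was at 8.96 RPKM in eye and 9.17 RPKM in retina, SOX8 at 5.15 and 5.31, SOX4 at 5.31 and 2.89, and SOX11 at 1.14 and 0.799. Among LIM partners, LDB1, the cofactor that bridges LIM homeodomain proteins, was at 29.6 RPKM in eye and 23.7 RPKM in retina. SSBP2, which stabilises LDB1, was at 29.5 and 22.3, and LHX4 at 10.9 and 20.7. SSBP3 was at 28.7 RPKM in eye and 134 RPKM in retina, where its transcript had 591 bases, and its transcripts with the highest alignment score differed by -0.0035.

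Of 17 shared retinal and optic vesicle factors 12 lay below 0, and the median was -0.27. CRX, the photoreceptor homeobox factor, was at 121 RPKM in eye and 197 RPKM in retina. OTX2 differed by -0.58. MITF, the factor of pigment cells that opposes retinal fate in the optic vesicle, was higher in eye by 1.61, at 8.99 RPKM against 2.26 in retina.

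**Figure D3:**
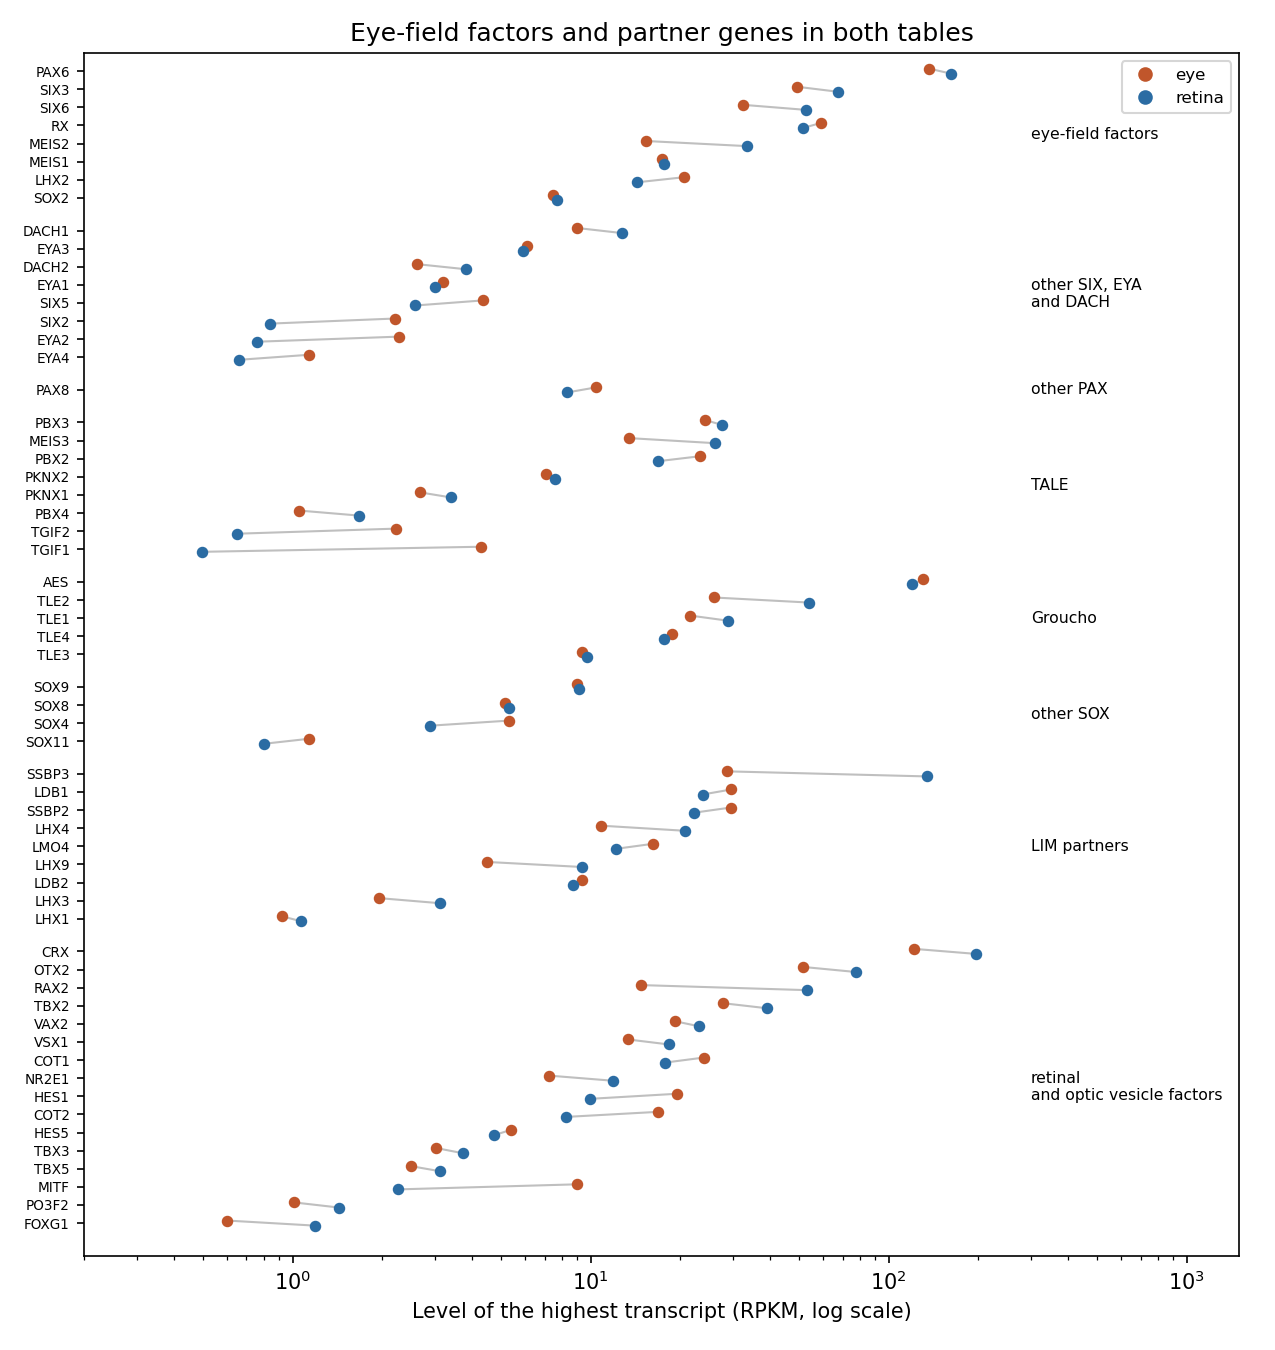
Level of the highest transcript of the eye-field factors and of 51 of the 53 partner genes in both tables, in RPKM on a log scale, with eye and retina points joined for each gene. PAX6, CRX, AES and, in retina, SSBP3 pass 100 RPKM, and MEIS2 and MEIS3 both have their eye point to the left.

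The tissues differed in the cells they hold, and this was measured beside the factors. Of 24 markers of 5 classes of retinal neurons, 23 lay below 0 and the median was -0.61. The summed level was 3821 RPKM in eye and 6797 RPKM in retina. In these sums ARRC gave 1177 and 2294 RPKM and RECO 973 and 2103, on transcripts of 139 to 356 bases. List medians were -0.50 for 6 amacrine markers, -0.35 for 6 ganglion cell markers, -0.69 for 3 horizontal cell markers, -0.52 for 4 bipolar markers and -0.69 for 5 photoreceptor markers. By the highest transcript PAX6, SIX3, SIX6 and MEIS2 thus had the same sign as these lists, and LHX2 and RX the opposite one. The sign of RX depended on the transcript taken, with -0.09 by the highest alignment score. MEIS2, at -1.07, lay just below the lowest of the 6 amacrine markers, GAD1 (named DCE1), at -0.995. Of 29 markers of lens, cornea, melanin synthesis, optic nerve, ciliary body, muscle and connective tissue, 25 were in both tables and all 25 were higher in eye, while MIP, K1C13, MYOC and DESM were in eye only. They summed to 18250.1 RPKM in eye and 1115 RPKM in retina. Of the sum in retina, 601 RPKM came from the actin ACTS, on a transcript of 135 bases, and 251 from PTGDS. Lens markers summed to 5456 RPKM in eye and 4.66 RPKM in retina and corneal ones to 5218 and 1.96, and both of these tissues express Pax6 in mouse. Melanin markers summed to 296 and 12.2 RPKM. Pigment epithelium markers, kept apart, had a median of 0.10: RPE65 stood at 238 RPKM in eye and 17.5 RPKM in retina, BEST1 at 15.8 and 16.6, and RLBP1 as given above. The part of these tissues in the level of any factor was not tested.

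**Figure D4:**
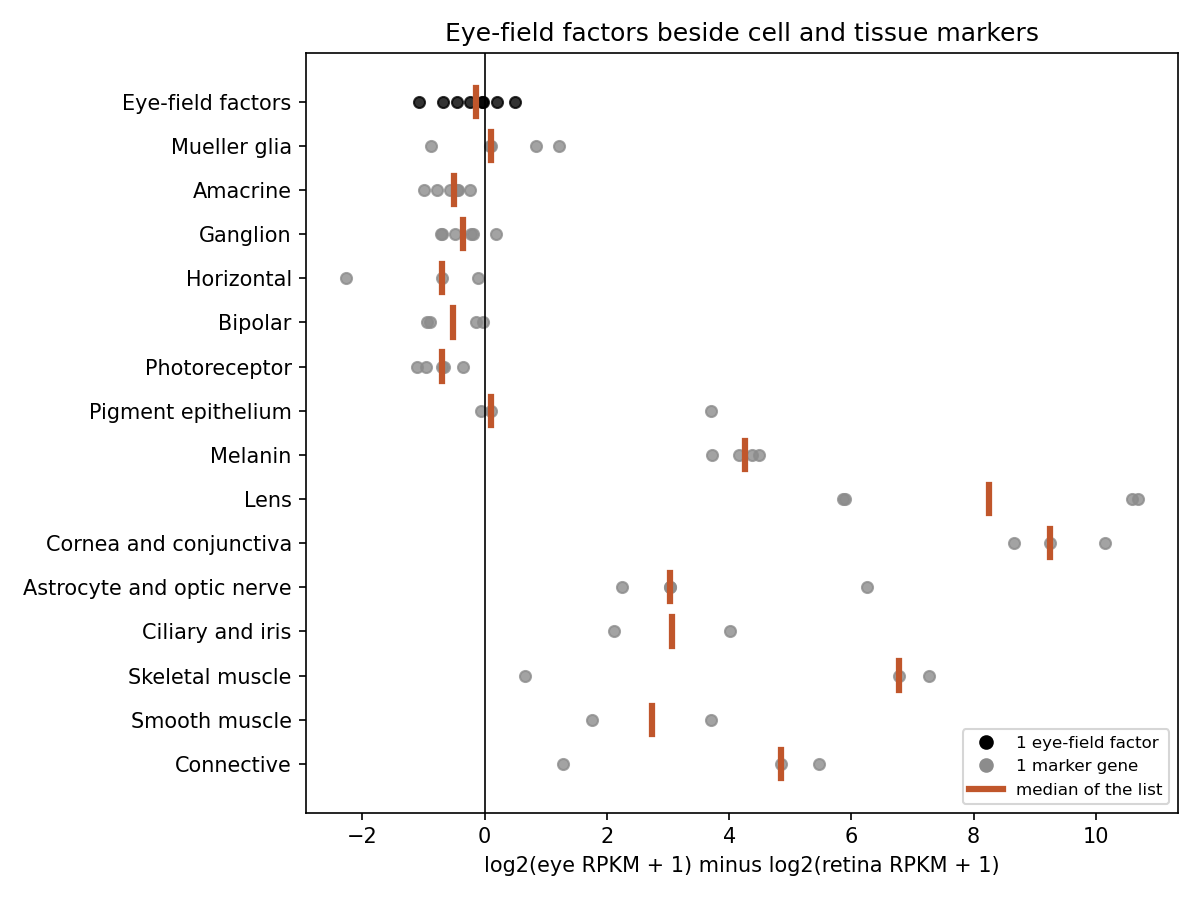
Eye minus retina difference, log2(RPKM + 1), for the 8 eye-field factors (black) and for marker genes of 15 cell and tissue lists (grey), with the median of each list as a bar. The factors lie between -1.07 and 0.49, with a median of -0.14. The retinal neuron lists have medians from -0.69 to -0.35, and the Mueller glia and pigment epithelium lists have medians of 0.10. The lens and corneal lists lie far off, with medians of 8.24 and 9.25.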

How the data were processed

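RNA sequencing of 2 eye and 3 retina libraries was deposited as 1 expression table and 1 table of Swiss-Prot hits for each tissue. The deposited values are read here as RPKM, because per the file headers they are expression values only and the value times the length was a whole multiple of 1 constant, within 0.01 reads, for 100% of transcripts. From it the scaling totals came to 264219334 reads for eye and 355988270 for retina. Reads recovered in this way summed to 19.2 times that total in eye and 10.5 times in retina, so that reads may be counted on several transcripts. How far this bears on the eye minus retina differences was not tested. At 1 RPKM a kilobase of transcript holds 264 reads of eye, with a 95% interval of 233 to 298, and 356 reads of retina, with one of 320 to 395. The submitters' processing notes name Bowtie with no version; for assembler and build the sources used here give nothing. Per the file headers, the hit tables give a deposited alignment score, and similarity is a percent of positive residues in the deposited tables.

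A gene's level is the RPKM of its highest transcript, compared for names at 1 RPKM or more in either tissue, with a pseudocount of 1 and a mark of 2-fold. Intervals come from the Poisson variance of the recovered reads. The functions were tested on simulated data. With 1 value per tissue no test was run. The members, the lists and the measure were chosen with earlier results of these data known. Genes named are the 9 members, up to 4 partner genes per group with the highest mean level, the nearest gene to each member, markers quoted from their lists, and, chosen after their values were seen, SIX2, SIX4, EYA2, OTX1, TGIF1, TGIF2, MITF, the names in eye only and the genes of the closing observations. Some genes that this rule would name are not reported here, though list counts and medians include them. RefSeq (mIctTri1.hap1) served for names and neighbours only; 64 of 67 partner symbols were found. Python 3.11.15, pandas 2.3.3, numpy 2.4.6 and scipy 1.17.1 were used.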

Additional observations from a re-analysis of the deposited data

How the results depend on the processing

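No paired analysis was possible because each table has 1 column per tissue and none per library; leaving out each library was not run for the same reason. Of 144 counts and medians recomputed under 16 alternatives, 104 stayed within the counting interval or 1.5 times the count. The cause of the other 40 changes was not tested. Counts are given for the 8 eye-field factors (main 0 in eye and 1 in retina past 2-fold, median -0.14), the partner genes (2, 3, -0.05) and all proteins (1577, 482, -0.0035).

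With transcripts summed, factors past 2-fold numbered 1 in eye and 2 in retina (median -0.63) and partners 8 and 11 (-0.12). Of 13696 proteins, 2296 were past 2-fold in eye and 2637 in retina (-0.073). With length-weighted means 0 factors were higher in retina (-0.25), the partner median was -0.10, and 272 of 13275 proteins were higher in retina (0.051). By the lowest E-value, with ties going to the longer transcript, 0 factors and 1 partner were higher in retina, beside 421 of 13268 proteins. With longest transcripts 1 factor (RX) and 6 partners were higher in eye, beside 1801 of 13320 proteins. The median of all proteins was then 0.043. Pseudocount 0.1 put 6 partners and 2002 of 13383 proteins higher in eye. Pseudocount 5 put 0 factors higher in retina and 0 partners higher in eye. With it 815 of all proteins were past 2-fold in eye and 265 in retina. The filter at 10 RPKM left 7 factors (-0.25) and 26 partners (0 higher in eye, -0.33), with 921 of 7190 proteins higher in eye. At an equal total the medians were -0.40 for factors, -0.28 for partners and -0.25 for all proteins, 7 partners were higher in retina, and all proteins split into 1199 higher in eye and 902 in retina.

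Chosen after seeing the data, sums at an equal total put 5 factors (-1.27), 19 partners (-0.68) and 4846 of 13714 proteins (-0.63) higher in retina. The list of species codes behind the alternative with mammalian hits alone was completed after its first result had been seen, because it had missed mammals present in the tables; as completed, that alternative moved no count or median beyond its limit. The highest alignment score, also chosen after seeing the data, gave 0 factors higher in eye and 1 in retina (-0.17). Of 13264 proteins it put 1556 higher in eye and 397 in retina. With at least 80% positives 1 factor (RX) was higher in eye and 1 partner in retina. Of 11186 proteins, 1270 were then higher in eye and 386 in retina. The 5 factors higher in retina with sums at an equal total were PAX6 (-2.04), SIX3, SIX6, MEIS1 and MEIS2. PAX6, SIX3, SIX6, SOX2 and MEIS2 were lower in eye under every alternative that gave them a value. For SOX2 this adds little, because with 1 transcript in each tissue the choice of transcript could not change its value. The SOX2 counting interval also reached 0 (-0.09 to 0.0019). RX was lower in eye under 3 of 16, MEIS1 higher under 1 of 17 (0.30, length-weighted means) and LHX2 lower under 1 of 16. LHX2 also had 1 transcript in each tissue, so that the choice of transcript could not change its value. SOX2 had no value with the filter at 10 RPKM. Counting intervals were narrow beside the spread between transcripts of the same gene.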

Other observations

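Among nuclear receptors of the optic vesicle list, COT1 (NR2F1) stood at 24.0 RPKM in eye and 17.8 RPKM in retina and COT2 (NR2F2), at 16.8 and 8.24, both higher in eye, with differences of 0.41 and 0.94. NR2E1, a receptor of retinal progenitors and glia in mouse, was lower in eye, at 7.27 RPKM against 11.8 in retina. The Notch effector HES1 was at 19.5 RPKM in eye and 9.97 RPKM in retina, a difference of 0.90, and HES5 at 5.39 and 4.75. The ventral optic factor VAX2 was at 19.2 and 23.2 RPKM, while VAX1 was in eye only, at 0.719 RPKM.

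Of T-box factors of the dorsal retina, TBX2 was at 27.8 RPKM in eye and 39.1 RPKM in retina, TBX3 at 3.04 and 3.71 and TBX5 at 2.50 and 3.13, all lower in eye by the highest transcript. By the highest alignment score TBX2 was higher in eye by 0.32, and TBX3 was higher in eye by 0.58 when transcripts were summed. These genes belong to the partner list, were picked from it after their values were seen, and have no replicate check.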
